A study of Mus musculus with 2 samples.

Results

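The genes described here are 10 imprinted genes of growth and differentiation: Dlk1, Meg3, Rian, Igf2, H19, Cdkn1c, Peg3, Plagl1, Mest and Grb10. They were listed by name and not by a rule on measured values, but with earlier results of these data known. They come from the 32285 genes of a single-cell RNA sequencing study of mouse adipose precursor cells, and both libraries list all 10. White precursor cells came from the subcutaneous depot and brown ones from the interscapular depot of newborn (P0) C57/BL6J mice of both sexes, pooled. The labels give the age as P0, while the study's methods give P1. The labels name no genetic change and no treatment, and the cells were grown to confluency in serum-containing medium without an inducer of differentiation. Brown tissue was digested with collagenase for longer than white, so depot and digestion time cannot be told apart.

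One library was made per depot. No value below therefore has a replicate, and no p-value was computed. The 95% intervals in parentheses cover counting error only. The values rest on 1999 precursor cells per depot, those named in the part of the study's cluster labels used here, with medians of 27204 (white) and 26900 (brown) unique molecular identifiers (UMIs) per cell and 57368210 and 57780702 UMIs in all. The early precursors form wAPC 1 to 4 and bAPC 1 to 5. The committed adipogenic precursors are wCAPs and bCAPs, and the fibro-adipogenic progenitor-like cells are wFAPLs and bFAPLs, with 15 differentiating wFAPLs beside them. Levels (CPM) are UMIs of a gene per 1000000 of the summed UMIs of a group of cells. Summed over the precursor cells, the glial, myeloid, myogenic and endothelial marker lists stood between 2.49 and 22.4 CPM, against 82.8 to 115 CPM for the precursor marker Pdgfra alone. The mural list stood at 3673 CPM in white and 4630 CPM in brown, carried by Acta2, which cultured fibroblasts also express. Of the captured barcodes, 9 occurred in both libraries, 3 of them labelled in both. All counts of genes past 2-fold in the comparisons of members were the same without them.

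Imprinted genes are expressed mainly from the allele of one parent. Many act on fetal and early postnatal growth, and several decline as tissues mature. Dlk1, also called preadipocyte factor 1, is a membrane protein related to Notch ligands that holds back adipocyte differentiation. Igf2 is a fetal growth factor that signals through the IGF1 and insulin receptors, and Grb10 is an adaptor that dampens those receptors. Cdkn1c encodes p57, an inhibitor of cyclin-dependent kinases. Plagl1 and Peg3 encode zinc finger proteins, Plagl1 being known as a regulator of other imprinted genes. Mest encodes a protein of the hydrolase fold that is linked to fat mass. Meg3, Rian and H19 are maternally expressed non-coding RNAs. Both alleles are summed in these counts and the mice are inbred, so the parental origin of the RNA was not measured.

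Of the 10 genes, 5 fall into clusters on the genome (GRCm38, GENCODE annotation). Dlk1 (ENSMUSG00000040856, chr12:109452823-109463336, plus strand) lies 77.7 kb before Meg3 (ENSMUSG00000021268, chr12:109541001-109571726), and Rian (ENSMUSG00000097451, chr12:109603940-109661716) begins 32.2 kb after Meg3. Igf2 (ENSMUSG00000048583, chr7:142650766-142666816, minus strand) and H19 (ENSMUSG00000000031, chr7:142575529-142578143) are 72.6 kb apart. Cdkn1c (ENSMUSG00000037664, chr7:143458339-143461050) lies 792 kb from Igf2, in a neighbouring imprinted domain. Peg3 (ENSMUSG00000002265, chr7:6703892-6730431) is at the far end of the same chromosome. Plagl1 (ENSMUSG00000019817, chr10:13060504-13131694), Mest (ENSMUSG00000051855, chr6:30723547-30748465) and Grb10 (ENSMUSG00000020176, chr11:11930508-12038683) stand alone. Meg3, Rian, Igf2, H19 and Mest hold small RNA genes on their own strand, among them Mir770 in Meg3, Mir370 in Rian, Mir483 in Igf2, Mir675 in H19 and Mir335 in Mest. The matrices do not list these, so the host's counts may hold reads of their precursors.

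The promoters of Dlk1, Meg3 and Igf2 are shown because these genes anchor the domains whose members moved together over cells. RefSeq windows of 250 bases before a start (GRCm38.p6) were found for 8 of the 10 genes. CpG dinucleotides, the sites at which imprinted genes are methylated, are in capitals.
Dlk1, chr12:109452573-109452822, plus strand: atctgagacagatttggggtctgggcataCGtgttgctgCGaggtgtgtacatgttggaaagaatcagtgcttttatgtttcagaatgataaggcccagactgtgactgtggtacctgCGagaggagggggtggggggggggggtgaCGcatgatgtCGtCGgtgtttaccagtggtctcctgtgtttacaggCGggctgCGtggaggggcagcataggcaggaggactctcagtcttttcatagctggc
Meg3, chr12:109540746-109540995, plus strand: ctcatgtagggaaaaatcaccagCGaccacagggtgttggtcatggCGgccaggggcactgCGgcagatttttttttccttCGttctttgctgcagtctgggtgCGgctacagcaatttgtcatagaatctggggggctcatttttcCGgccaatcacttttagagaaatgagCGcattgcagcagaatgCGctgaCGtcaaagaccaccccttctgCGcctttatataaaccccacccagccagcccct
Igf2, the most upstream of 4 starts, chr7:142666817-142667066, minus strand: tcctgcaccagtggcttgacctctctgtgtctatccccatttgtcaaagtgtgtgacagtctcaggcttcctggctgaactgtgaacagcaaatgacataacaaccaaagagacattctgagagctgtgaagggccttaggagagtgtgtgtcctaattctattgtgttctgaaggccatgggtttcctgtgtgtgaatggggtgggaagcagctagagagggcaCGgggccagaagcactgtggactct
The windows shown hold 8, 10 and 1 CpG, against a median of 6 over the 32851 windows of the table. The later Igf2 windows, not shown, hold 10, 22 and 6 CpG, and a second Meg3 window holds 0. Among the 15 windows of the 8 genes, the range ran from 0 CpG (Rian and the second Meg3 window) to 40 CpG (Grb10). A TATAAA box, searched on the gene's strand, was found only in the Meg3 window shown, 25 bases before the start, and in 7.59% of all windows. The palindrome GGGGCCCC, a form of the sequence known to be bound by Plagl1, was found in 1 of the 15 windows, that of Peg3, and in 0.889% of all windows. These matches describe the letters only. The 3′ counts do not tell which start a transcript used.

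Between depots, most of the 10 genes were lower in brown than in white precursor cells. In white cells Igf2 stood at 306 CPM (302 to 311). In brown cells it stood at 127 CPM (124 to 130), a log2 ratio of brown over white of -1.27 (-1.31 to -1.23). Cdkn1c had 228 CPM (224 to 232) in the white library against 101.3 CPM (98.8 to 104) in the brown one, a log2 ratio of -1.17 (-1.21 to -1.13). These 2 were the only members past 2-fold, both lower in brown. Over all 9041 genes at 10 CPM or more in either library, 1.83% were past 2-fold and 1.07% were lower in brown. The remaining 8 genes had log2 ratios between -0.39 and 0.43. The 2 calls depended on the cells used: with clusters weighted equally Igf2 had -0.98, and over all captured cells Cdkn1c had -0.96.

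By parental allele the medians were close, at -0.35 for the 5 maternally and -0.30 for the 5 paternally expressed genes. All 5 maternally expressed genes were below 0. Besides Cdkn1c these were Rian at -0.39, H19 at -0.35, Meg3 at -0.32 and Grb10 at -0.26. Of the paternally expressed genes, 3 were below 0 and 2 above. Dlk1 stood at 480.1 CPM in white and 389 CPM in brown (-0.30), and Plagl1 had a log2 ratio of -0.31. Peg3 and Mest were the exceptions. Peg3 stood at 232 CPM in white and 299 CPM in brown (0.36, 0.33 to 0.40), and Mest at 83.0 and 112 CPM (0.43, 0.38 to 0.48). Over the 10 genes the median log2 ratio was -0.31, against -0.04 over all genes at 10 CPM or more.

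The depot difference was not the same in each kind of cell. Further comparisons between clusters of like name were chosen after the cluster levels had been seen. For Dlk1 the log2 ratio was -1.44 (-1.53 to -1.35) between bCAPs and wCAPs, where the levels were 136 and 369 CPM. Between bFAPLs and wFAPLs it was -0.38 (-0.50 to -0.27). Igf2 behaved in another way. Its ratio was -1.09 (-1.18 to -1.01) in CAPs, -0.43 (-0.60 to -0.26) in FAPLs and -2.06 (-2.24 to -1.89) between bAPC 3 and wAPC 3, the early clusters with the most cells in G2 or M phase. H19, the neighbour of Igf2, was lower in brown in APC 3 (-1.03), close to equal in CAPs (-0.10) and higher in brown in FAPLs (0.42, 0.34 to 0.51). Cdkn1c was past 2-fold lower in brown in all 3 of these pairs, at -1.13 in CAPs, -1.35 in FAPLs and -1.63 in APC 3. Of the 10 genes, 3 were past 2-fold in the CAP pair, all lower in brown, against 4.32% of all genes (2.14% higher and 2.18% lower). In the FAPL pair the count was 1, against 1.69% (1.04% lower), and in the APC 3 pair it was 3, against 2.67% (1.46% lower).

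**Figure D1:**
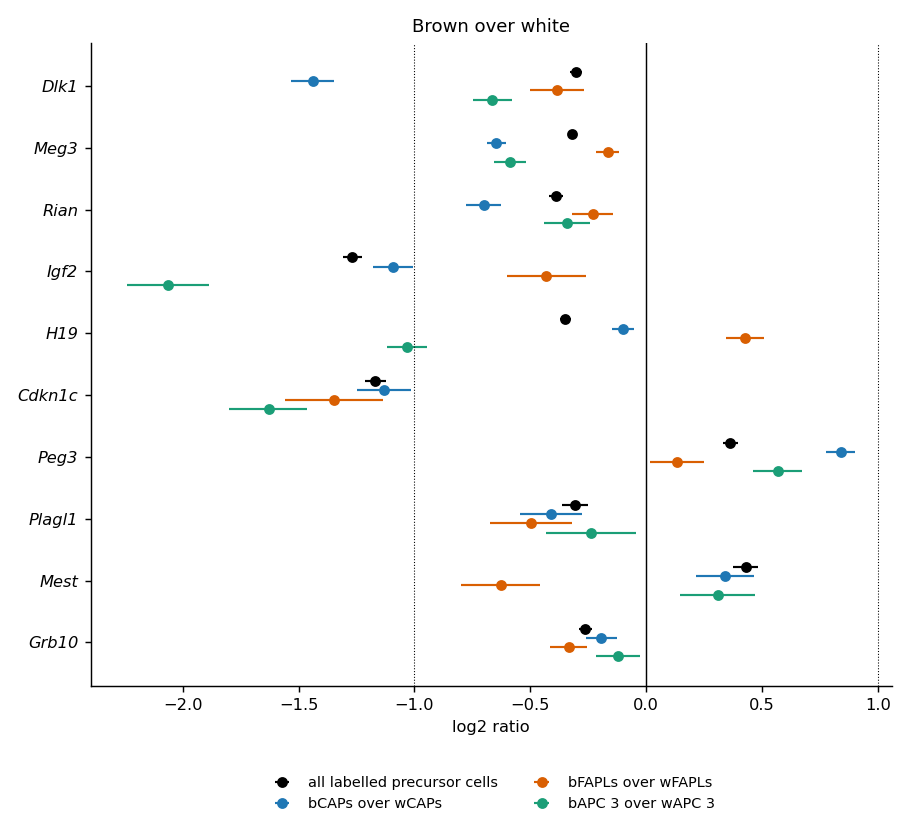
Log2 ratio of brown over white for each of the 10 genes (horizontal axis), over all labelled precursor cells and in 3 pairs of clusters. Points are ratios of summed UMIs and bars are exact 95% counting intervals. Dotted lines mark 2-fold. Igf2 and Cdkn1c lie left of -1 in the pooled cells, while Dlk1 does so only in the CAP pair, at -1.44.

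Within each depot the levels followed the clusters. Across the 6 white clusters with at least 50 cells, 7 of the 10 genes spanned at least 2-fold between the highest and the lowest cluster, and across the 7 brown clusters all 10 did. Of all genes, 17.6% did so in white and 20.4% in brown. The clusters were made by the study from these same counts, so these spans are descriptions.

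Dlk1 had one of the widest ranges. The white clusters began with wAPC 2 at 1015 CPM (993 to 1038), then wAPC 3 at 593, wAPC 1 at 455, wAPC 4 at 438 and wCAPs at 369, and ended with wFAPLs at 188 CPM (179 to 199), a span of 5.39-fold. Neighbours in that order had separate intervals, apart from wAPC 1 and wAPC 4. The brown ones began with bAPC 5 at 1021 CPM (987 to 1057), then bAPC 1 at 517, bAPC 2 at 410.2, bAPC 3 at 375 and bAPC 4 at 271, and ended with bFAPLs at 144 and bCAPs at 136 CPM, a span of 7.51-fold. The lowest pair did not differ beyond counting error. The committed precursors thus took another place in each depot. In white cells FAPLs were lowest for Dlk1, and in brown cells CAPs were as low as FAPLs.

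Igf2 was lowest in FAPLs of both depots, at 91.2 CPM (84.4 to 98.5) in wFAPLs and 67.7 CPM (61.9 to 73.8) in bFAPLs. The interval of bFAPLs overlapped that of bAPC 3, at 71.0 CPM. The other white clusters lay between 295 and 455 CPM, the highest being wAPC 2. The other brown clusters lay between 71.0 and 160.2 CPM, with the exception of bAPC 5 at 455 CPM (432 to 478). Its levels in bAPC 5 and wAPC 2 did not differ beyond counting error, with a log2 ratio of -0.00 (-0.09 to 0.09).

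H19 kept near to Igf2 in its order. It was lowest of the white clusters in wFAPLs, at 288 CPM, and highest in wAPC 4 and wAPC 2, at 828 and 823 CPM with overlapping intervals. In brown cells it was highest in bAPC 5, at 1086 CPM, followed by bCAPs at 637 CPM, and lowest in bAPC 3, at 317 CPM. Cdkn1c stood out in wAPC 2, at 599 CPM (582 to 616), 2.40 times the level in wAPC 3, the next cluster. In brown cells its highest level was 177 CPM (163 to 192) in bAPC 5 and its lowest 34.6 CPM (30.6 to 39.1) in bFAPLs.

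Grb10, Meg3 and Rian varied least in white cells, by 1.78-fold, 1.92-fold and 1.94-fold. Meg3 and Rian were highest in wAPC 2, at 1605 and 587 CPM, and in bAPC 5, at 1299 and 444 CPM. Peg3 was highest in bAPC 5 (531 CPM) and next in bCAPs (444 CPM), and lowest in wFAPLs (155 CPM) and bFAPLs (170 CPM). Its interval in wFAPLs overlapped that in wAPC 1. Mest stood at 367 CPM (346 to 388) in bAPC 5, 2.73 times the next brown cluster, and between 55.8 and 153 CPM in white clusters. Grb10 ranged from 266 to 473 CPM in white and from 207 to 598 CPM in brown clusters. Plagl1 was highest in wAPC 2 (187 CPM) and bAPC 5 (144 CPM) and otherwise stayed between 55.4 and 106 CPM.

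**Figure D2:**
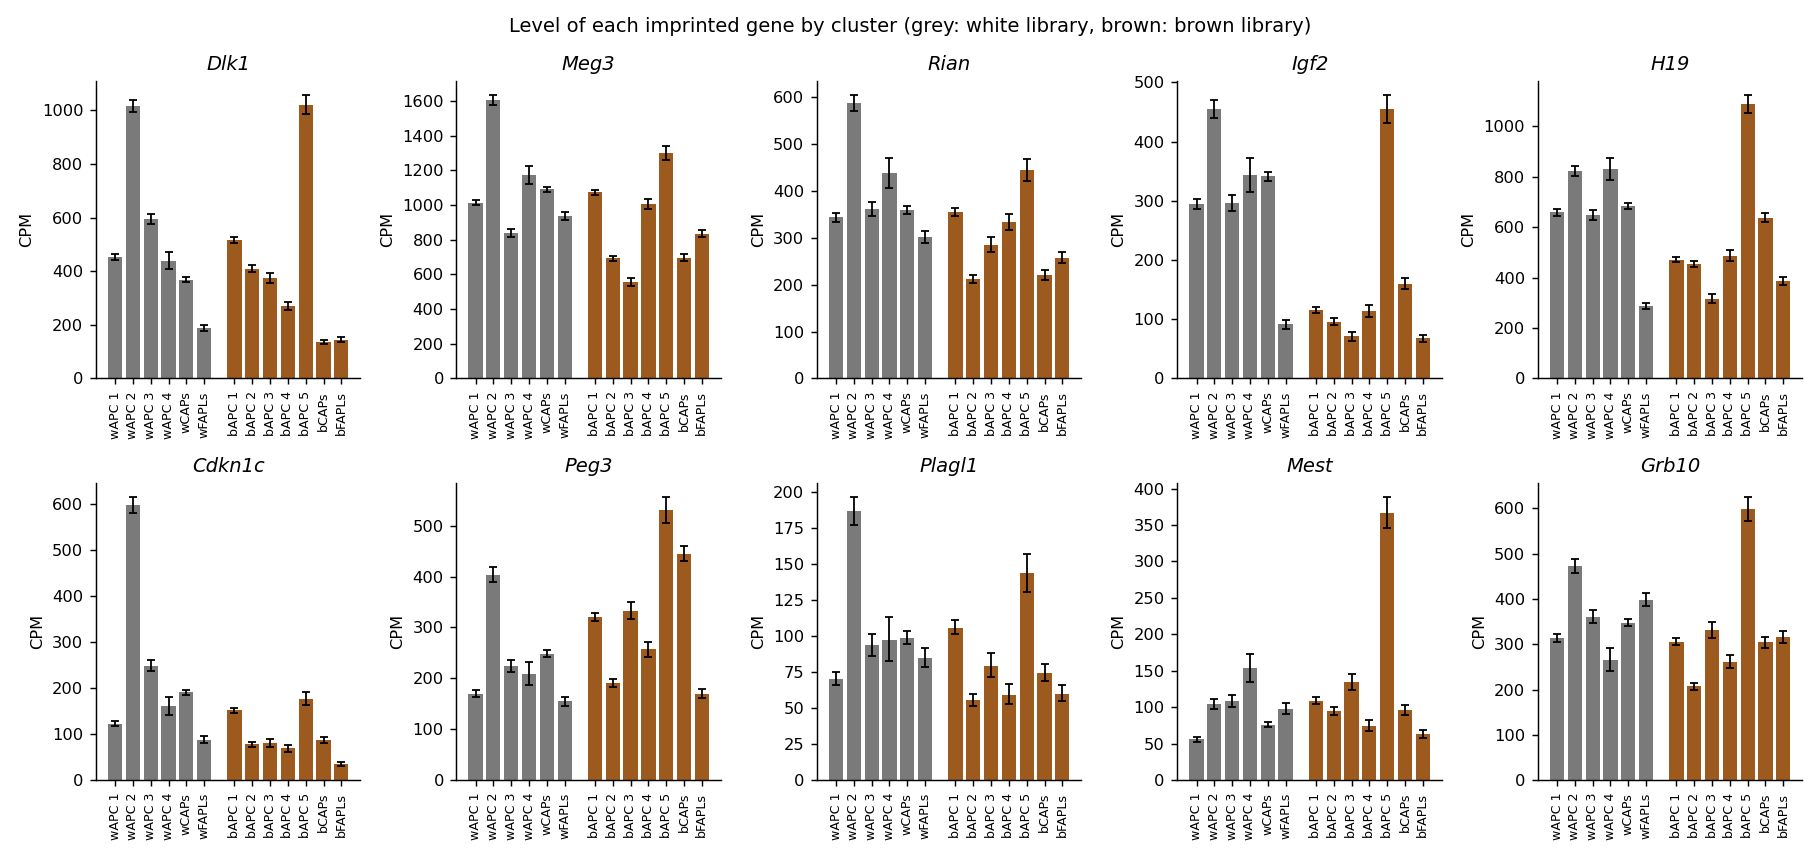
Level of each of the 10 genes in CPM (vertical axes, from 0) in the 6 white (grey) and 7 brown (brown) clusters with at least 50 labelled cells. Bars are summed UMIs of a cluster and error bars exact 95% Poisson intervals. wAPC 2 is the tallest grey bar except for H19 and Mest, where wAPC 4 is, and bAPC 5 is the tallest brown bar in all 10 panels.

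The highest cluster was thus shared by most of the genes: wAPC 2 for 8 of 10 in white and bAPC 5 for 10 of 10 in brown. Of all genes, 15.8% were highest in wAPC 2 and 14.5% in bAPC 5. Together the 10 genes made up 6251 CPM of wAPC 2 and 6121 CPM of bAPC 5, and between 2335 and 4104 CPM of the other clusters with at least 50 cells. The 2 clusters held 260 and 115 cells. The median depth of wAPC 2, 29538.5 UMIs, was the highest of the 6 white clusters, next to 29424 in wAPC 1, and that of bAPC 5, 27265, lay within the range of the brown ones. The share of G1 cells was 70.0% in wAPC 2 and 73.9% in bAPC 5, against 64.3% and 65.6% in all precursor cells. Without equalizing depth, a UMI of each of the 10 genes was found in 53.1% of wAPC 2 cells and 66.1% of bAPC 5 cells. The shares were 32.2% and 20.8% over all white and brown precursor cells, 16.4% in wFAPLs and 9.32% in bFAPLs. The FAPLs had lower median depths, 26730.5 and 25194 UMIs.

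Compared with the other precursor cells of its library, a comparison added after the levels were seen, wAPC 2 was past 2-fold higher for 3 of the 10 genes: Cdkn1c at 1.82 (1.77 to 1.87), Dlk1 at 1.36 (1.32 to 1.39) and Plagl1 at 1.10 (1.01 to 1.19). Peg3, at 0.97, was just short of it. The last calls moved with sex: Plagl1 had 1.16 in female and 0.94 in male cells, and Peg3 had 1.06 and 0.72. All 10 ratios were above 0, with a median of 0.72, against 0.01 over all genes. Of all genes, 1.78% were past 2-fold and 1.06% higher. The cluster was picked because most of the 10 genes were highest in it, so most of these signs follow from that choice. In bAPC 5 the count was 5 of 10, against 2.45% of all genes past 2-fold and 1.35% higher: Igf2 at 2.08 (1.99 to 2.16), Mest at 1.92 (1.83 to 2.01), Dlk1 at 1.54, H19 at 1.21 and Grb10 at 1.08. The median was 0.99. All 10 were again above 0, which was fixed in advance, since bAPC 5 was the highest brown cluster for all 10. Nothing is read from the signs or counts of members in either cluster. Set against each other, the 2 clusters did not differ beyond counting error in Dlk1 (0.01, -0.05 to 0.07) or, as above, in Igf2, and 2 of the 10 genes were past 2-fold. Cdkn1c was lower in bAPC 5 at -1.76 (-1.88 to -1.63) and Mest was higher in it at 1.81 (1.68 to 1.94), in a comparison in which 4.69% of all genes were past 2-fold, 1.69% higher and 3.00% lower.

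Of the 6 adipogenic genes at 10 CPM or more, 2 were past 2-fold lower in wAPC 2, where 0.718% of all genes were, and 4 in bAPC 5, where 1.10% were. Fabp4, a fatty acid binding protein gene, had -2.82 and -2.45, and Pparg, the main adipogenic transcription factor, -1.53 and -2.28. Cebpd was above 0 in both (0.54 and 0.32), and the medians were -0.51 and -1.46. The study describes its early clusters by low Pparg and labelled CAPs for their high Pparg and Fabp4. CAPs are among the other cells here, so low adipogenic genes follow in part from the labels. The IGF axis list held Igf1, receptors, binding proteins and binding proteins of Igf2 mRNA. It had 0 of 12 past 2-fold in wAPC 2, against 1.78% of all genes. In bAPC 5 it had 3 of 13 past 2-fold higher, against 1.35%. The study marks bAPC 5 by high Igf1, a gene of this list. For the other imprinted genes at 10 CPM or more the counts were 0 of 28 and 1 of 28. Of all genes, 1.78% and 2.45% were past 2-fold. The medians of the other imprinted genes were 0.20 and 0.14. Both clusters had been picked because most or all of the 10 genes were highest in them, so nothing is read from the gap between the lists.

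The committed states were compared next, since the study sets CAPs against FAPLs. In white cells, 3 of 10 genes were past 2-fold higher in wCAPs than in wFAPLs and none was lower, in a comparison where 3.85% of all genes were past 2-fold, 1.60% higher and 2.25% lower. Igf2 stood at 341 and 91.2 CPM, a log2 ratio of 1.90 (1.79 to 2.02). H19 stood at 683 and 288 CPM (1.25, 1.18 to 1.31), and Cdkn1c at 191 and 88.0 CPM (1.12, 0.99 to 1.24). Dlk1 lay just short of 2-fold, at 0.97 (0.88 to 1.05). Grb10 at -0.20 and Mest at -0.36 (-0.49 to -0.23) were lower in wCAPs. Mural markers, genes of pericytes and smooth muscle, were higher in wFAPLs, 4 of 4: Myh11 at 102 CPM against 6.14 CPM in wCAPs, Abcc9 at 60.2 against 10.3 CPM, Rgs5 at 28.3 against 0.62 CPM and Acta2 at 4155 against 2352 CPM. Their part in the contrast of CAPs with FAPLs was not tested.

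In brown cells 3 of 10 were past 2-fold higher in bCAPs than in bFAPLs, where 3.87% of all genes were past 2-fold, 2.01% higher and 1.86% lower. These were Peg3 at 444 and 170 CPM (1.39, 1.30 to 1.48), Cdkn1c at 87.2 and 34.6 CPM (1.33, 1.13 to 1.54) and Igf2 at 160.2 and 67.7 CPM (1.24, 1.09 to 1.39). H19 followed at 0.72. Dlk1, at 136 and 144 CPM, did not differ beyond counting error (-0.09, -0.21 to 0.04), and its ratio was above 0 in G1 cells (0.12) and with labels carried to more cells (0.16). Grb10 did not differ beyond counting error either (-0.06, -0.14 to 0.02), and had 0.09 after thinning. Meg3 and Rian were lower in bCAPs than in bFAPLs, at -0.26 and -0.22, and higher in wCAPs than in wFAPLs, at 0.22 and 0.25. Mest was higher in bCAPs (0.61) and lower in wCAPs. The mural markers were again higher in the FAPLs, 4 of 4, with Rgs5 at 76.8 against 8.53 CPM, Myh11 at 48.4 against 13.04 CPM, Abcc9 at 34.5 against 11.3 CPM and Acta2 at 5500 against 4198 CPM, and their part was not tested here either. Whether these contrasts differ between depots was not tested, with 1 library each. Igf2 and Cdkn1c were thus the members past 2-fold higher in CAPs of both depots. The white call for Cdkn1c was short of 2-fold in female cells (0.87). It also leaves out the differentiating wFAPLs, which had more Cdkn1c than any other white cluster.

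**Figure D3:**
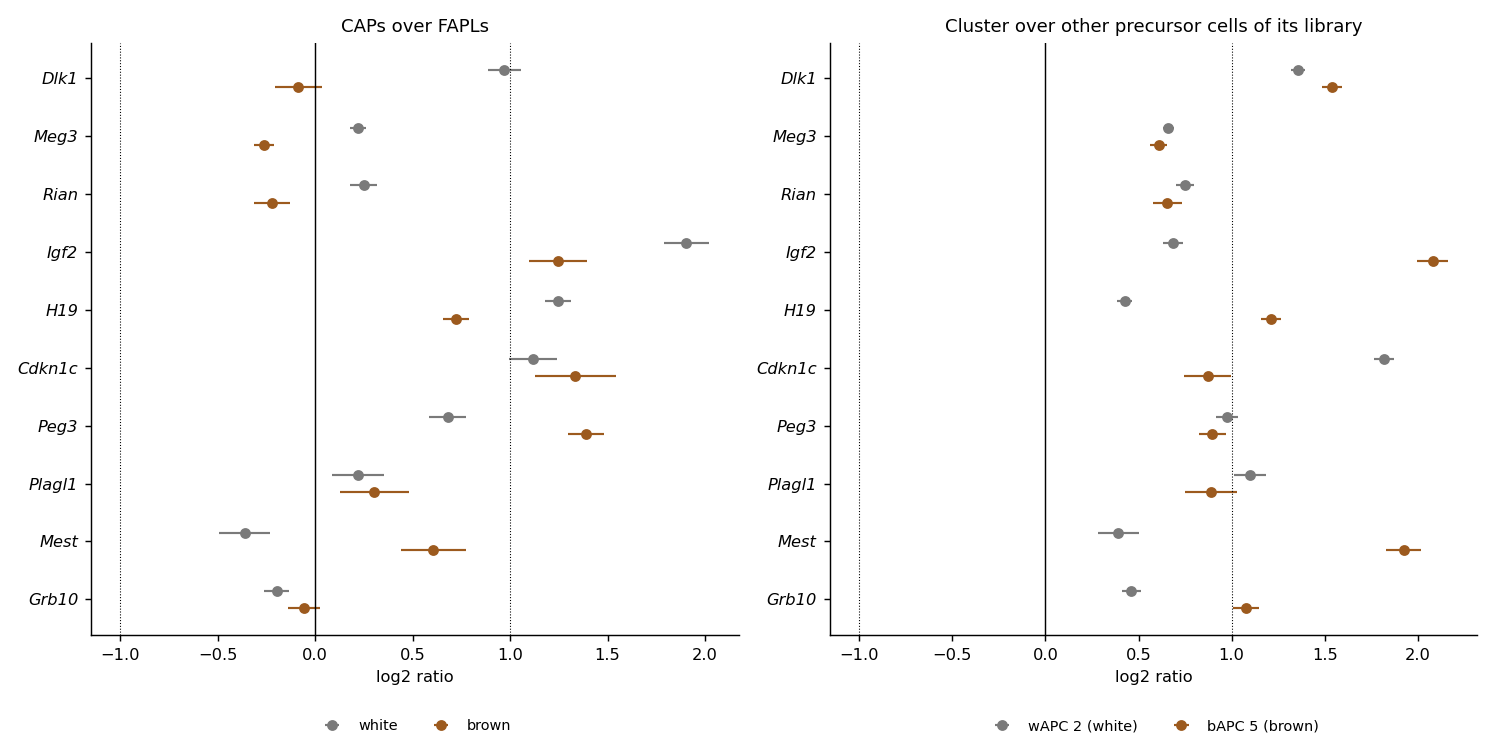
Log2 ratios within each library for the 10 genes, with exact 95% counting intervals and dotted lines at 2-fold. On the left are CAPs over FAPLs, and on the right wAPC 2 and bAPC 5 over the other precursor cells. On the right all 20 points lie above 0, the lowest being Mest in wAPC 2 at 0.39. Both clusters were picked because most or all of the genes were highest in them, so these signs were largely fixed in advance.

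The 15 differentiating wFAPLs parted the group. Cdkn1c was higher there than in any larger cluster, at 912 CPM (828 to 1002), with a UMI in 73.3% of the cells. Meg3 at 1050.5 CPM, Rian at 350.2 CPM and Grb10 at 279 CPM lay within the range of the other white clusters. Igf2 at 12.6 CPM (4.62 to 27.4), H19 at 21.0 CPM, Mest at 12.6 CPM, Peg3 at 25.2 CPM, Plagl1 at 29.4 CPM and Dlk1 at 62.9 CPM lay below all of them. In the same cells the mural markers Acta2 and Myh11, genes of smooth muscle contraction, stood at 24520 and 2522 CPM, against 3609 and 43.6 CPM in all white precursor cells. Their part in these levels was not tested.

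Sex was looked at because the pups were pooled. Cells with a UMI of Xist and none of 4 Y-linked genes were called female and the reverse male, which placed 96.8% of white and 96.4% of brown precursor cells. Of these, 79.5% of white and 85.9% of brown cells were female. The share was 79.5% in wAPC 2 and 92.9% in bAPC 5, where 8 cells were male. Over all precursor cells no member differed by 2-fold between male and female cells, the widest log2 ratio of male over female being -0.37 (-0.50 to -0.25) for Cdkn1c in brown cells. Of all genes, 0.100% in white and 0.0893% in brown were past 2-fold. Igf2 was lower in brown in both sexes, at -1.26 in female and -1.29 in male cells, and Cdkn1c at -1.13 and -1.39.

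The contrast of wCAPs with wFAPLs was wider in male cells. For Cdkn1c it was 0.87 (0.73 to 1.00) over 524 and 195 female cells, short of 2-fold, and 2.19 (1.84 to 2.55) over 129 and 57 male cells. For Dlk1 it was 0.78 (0.69 to 0.88) and 1.49 (1.30 to 1.69). In brown cells Peg3 had 1.27 in female and 2.16 (1.90 to 2.44) in male cells, the latter over 50 bCAPs and 47 bFAPLs. Grb10 had -0.18 (-0.28 to -0.09) in female and 0.57 (0.36 to 0.78) in male cells, and Dlk1 had -0.24 (-0.38 to -0.11) and 0.46 (0.12 to 0.81). How many pups lie behind each sex is not known per cell, and the intervals do not cover differences between pups.

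Cycle phase moved with one member in particular. Cdkn1c was higher in G1 than in S and G2M cells, by a log2 ratio of 0.92 (0.87 to 0.98) in white and 0.44 (0.36 to 0.52) in brown cells. Meg3 had 0.35 and 0.26. Dlk1 was slightly lower in G1, at -0.12 and -0.21, and the remaining ratios lay between -0.09 and 0.31. With G1 cells only, the depot ratio was -1.32 for Cdkn1c and -1.22 for Igf2.

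From cell to cell the genes were unevenly spread. With each cell thinned to 10000 UMIs, Dlk1 had between 0 and 58 UMIs per cell in white cells, with a median of 3, and between 0 and 56 in brown cells, with a median of 2. Its variance was 7.19 times its mean in white and 10.3 times in brown cells, above 99.4% and 99.7% of genes at 50 CPM or more, for which the median was 1.14. Cdkn1c in white was above Dlk1 (8.53), and H19 in brown was next to it (8.23). The genes ranked were not matched for level, on which this measure can depend. The most even members were Grb10 (1.71) and Plagl1 (1.82) in white, and Plagl1 (1.72), Rian (1.95) and Grb10 (1.99) in brown. The tenth of cells with the most Cdkn1c held 55.0% of its UMIs in white and 61.8% in brown, against 24.6% and 27.4% for Grb10.

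The share of cells with a UMI was read against glial cells of the same libraries, which are of another lineage. After thinning, Igf2 was found in 62.8% of white and 39.4% of brown precursor cells, against 0 of 20 glial cells in white, which allows a share of up to 15.0%, and 4.55% of 22 in brown. Dlk1 was found in 83.6% and 70.8% of precursor cells and 10.0% and 13.6% of glial cells. Median depths before thinning were 22607 and 17174.5 UMIs in glial cells, below those of the precursor cells. For Mest and Grb10 the glial shares came near to or above those of the precursor cells: 40.0% against 40.2% for Mest in white and 63.6% against 47.4% in brown, and 80.0% against 94.3% for Grb10 in white and 95.5% against 88.8% in brown. These 2 genes, and Peg3 with overlapping intervals, were thus not set apart from glial cells by this measure. By level, over glial cells with labels carried to more cells, Peg3 stood at 139 CPM (118 to 164) in white. In brown it stood at 124 CPM (107 to 144), and both lay below its precursor levels. In the 14 and 27 myeloid cells Grb10 was found in 7.14% and 18.5%.

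**Figure D4:**
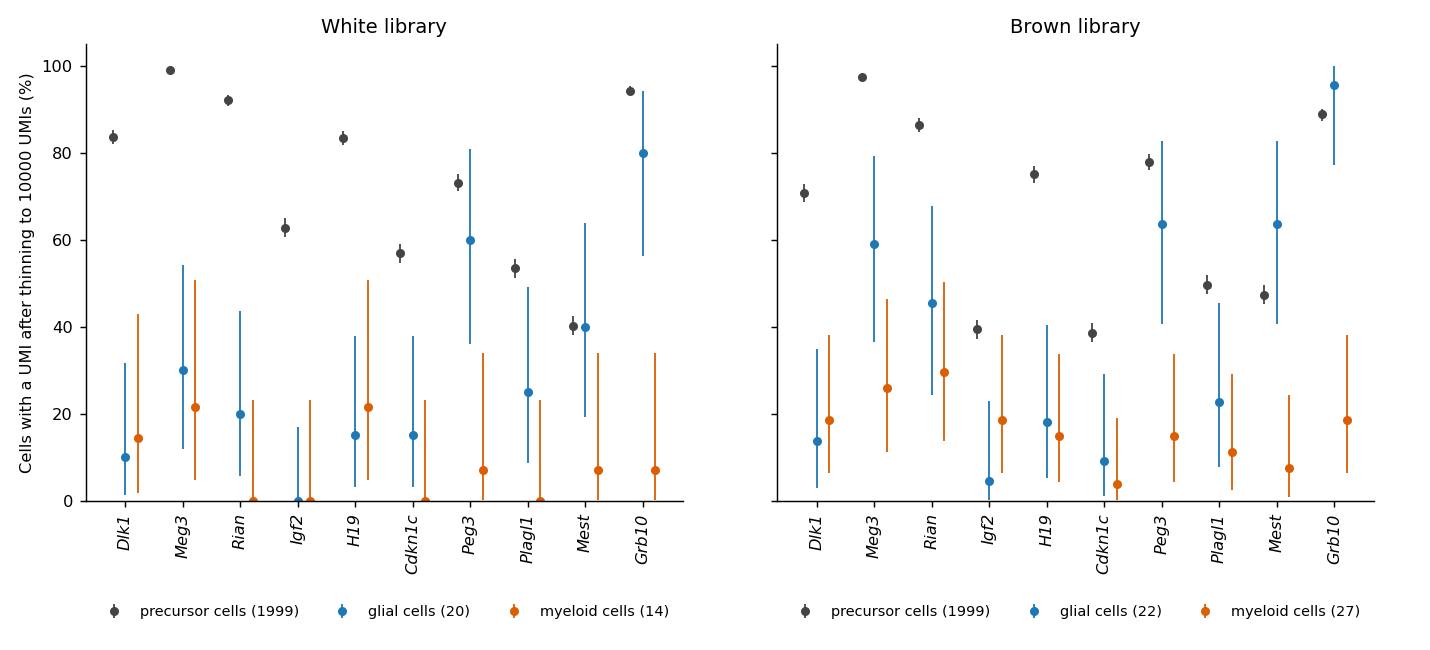
Share of cells with a UMI of each of the 10 genes after thinning each cell to 10000 UMIs (vertical axis, percent), in precursor, glial and myeloid cells of each library, with numbers of cells in the legend and exact 95% binomial intervals. Igf2 and Dlk1 separate the precursor cells from glial cells, while Mest and Grb10 do not. For Peg3 the intervals of the few glial cells overlap those of the precursor cells.

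Over single precursor cells the genes went up and down together. Pearson correlations of log-normalized counts were above 0 for all 45 pairs in both libraries, with medians of 0.24 in white and 0.22 in brown. In each library 27 pairs had an r of at least 0.2. Over all pairs of genes at 50 CPM or more, 0.582% in white and 0.805% in brown did so, and the median r was 0.00. These pairs were not matched for spread over cells. The variance over mean of the members lay above that of 83.4% to 99.7% of such genes. Each correlation is a description over 1999 cells of 1 library, which share their culture. The correlation of a member with the cell's total UMIs lay between -0.11 and 0.08.

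The strongest pairs lie side by side on the genome. Meg3 and Rian had an r of 0.65 in white and 0.69 in brown cells, and Igf2 and H19 had 0.53 in both. The first pair is expressed from the same parental allele, and the second from opposite ones. Dlk1, whose paternal allele is expressed beside maternal Meg3 and Rian, had 0.37 and 0.33 with Meg3 and 0.34 in both with Rian. The 4 pairs within a domain had medians of 0.45 and 0.44, and the 41 pairs of other loci 0.21 and 0.20. Among the latter, Dlk1 and Cdkn1c were highest, at 0.43 and 0.38, followed in white by Meg3 and Cdkn1c (0.40) and Dlk1 and Igf2 (0.39). Dlk1 and Igf2 had 0.26 in brown. Mest and Grb10 were the members least tied to the rest in white, with Mest and Meg3 lowest of all pairs at 0.05.

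Differences between clusters were then taken out. With each gene centred on the mean of its cluster, the medians were 0.18 in white and 0.16 in brown, and 19 and 10 pairs reached 0.2. Meg3 with Rian (0.63 and 0.66), Igf2 with H19 (0.48 in both) and Dlk1 with Cdkn1c (0.33 and 0.32) kept most of their correlation. Thinning to equal depth left 16 and 13 pairs at 0.2, with 0.52 and 0.51 for Meg3 and Rian and 0.46 and 0.47 for Igf2 and H19.

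**Figure D5:**
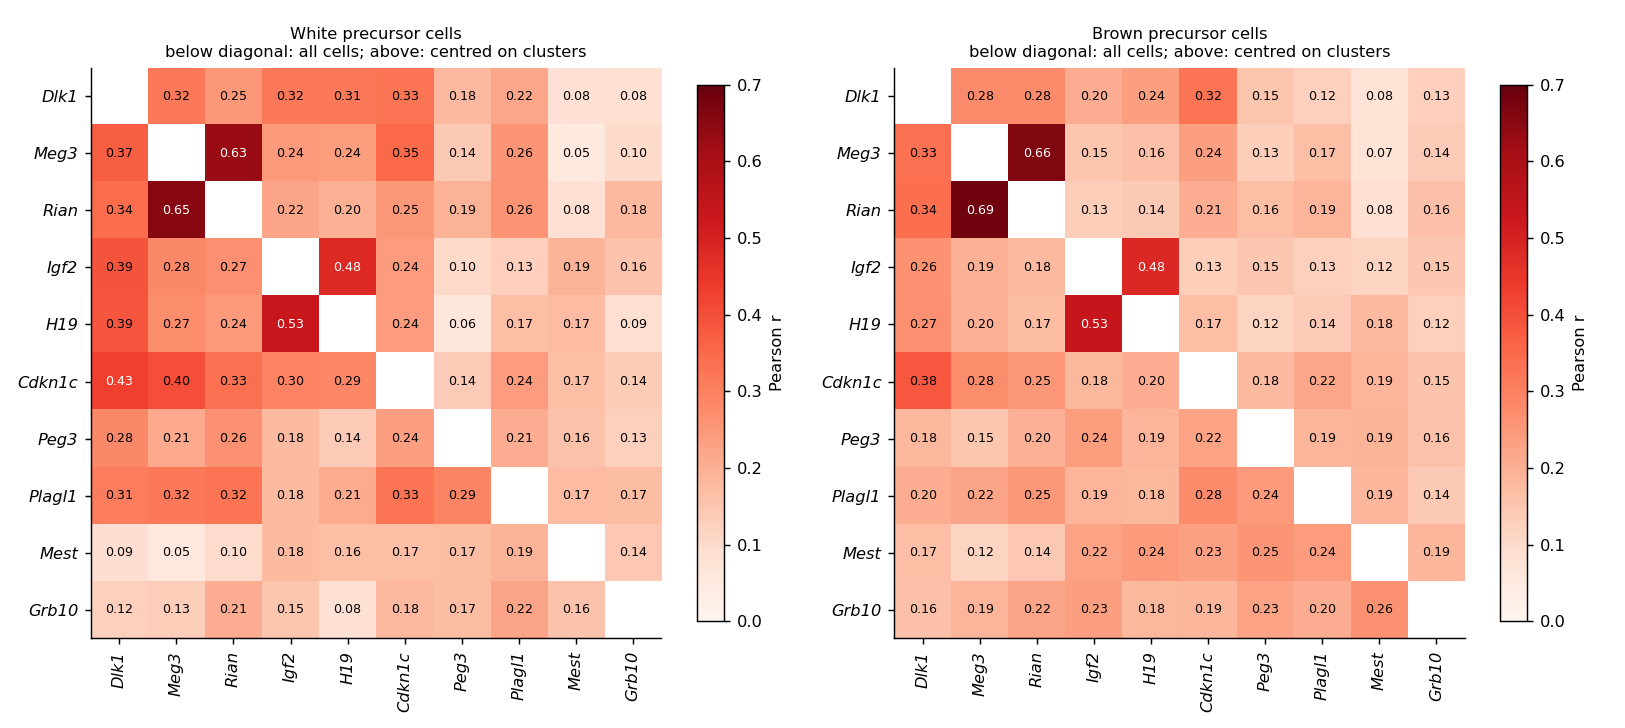
Pearson r between the 10 genes over 1999 white (left) and 1999 brown (right) precursor cells. Values below the diagonal use all cells, and those above are centred on cluster means. The darkest squares are Meg3 with Rian (0.65 and 0.69) and Igf2 with H19 (0.53 in both).

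Among 3302 other genes at 50 CPM or more in both libraries, the gene most like Dlk1 over cells was Ptn, a secreted heparin-binding growth factor, with an r of 0.41 in white and 0.47 in brown. Cdkn1c and the retinoic acid binding protein gene Crabp1 came next. Ptn was also the closest to Cdkn1c (0.43 and 0.40). For Meg3 and Rian the list was led by each other, B830012L14Rik, a non-coding gene 33.9 kb after Rian on the same strand, and Dlk1. For Igf2 and H19 it was led by each other, Dlk1 and Itm2a, a membrane protein gene. Peg3 had Auts2, Marcks and Ptn, Plagl1 had Mir99ahg, Cdkn1c and Ptn, Mest had Marcks, Aspn and Plagl1, and Grb10 had Marcks, Sptbn1 and Fbxl7, with mean r values over both libraries from 0.215 to 0.313. Members were thus among the 3 closest genes for 8 of the 10. For Meg3, Rian, Igf2 and H19 the closest gene was a neighbour on the genome. The share for other genes of like spread over cells was not computed, so nothing is read from this count.

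Across the 13 clusters with at least 50 cells, some neighbours on the genome stood close and others did not. Igf2 and H19 had an r of 0.92 of log2(CPM + 1) and Meg3 and Rian had 0.87, the highest of the 45 pairs. Dlk1 had 0.76 with Rian but 0.58 with Meg3, below pairs of separate loci such as Cdkn1c with Plagl1 (0.86), Rian with Plagl1 (0.85) and Igf2 with Cdkn1c (0.82). Rian had 0.98 with B830012L14Rik and 0.97 with Mirg, and Peg3 was most like Usp29 (0.94), whose start lies within 0.147 kb of that of Peg3 on the other strand. Dlk1 was most like the mesenchymal transcription factor genes Prrx2, Twist1 and Sox11 (0.92, 0.92 and 0.91), and Igf2 after H19 was most like Igf1 (0.89). The closest gene was Zfp422 for Meg3 (0.94), Dnm3 for Cdkn1c (0.94), Tnfaip8 for Plagl1 (0.93), Cilp for Mest (0.91) and Commd10 for Grb10 (0.94). These are the highest of 9910 genes searched over 13 points, and are given as a description.

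A list of other genes known as imprinted gives a setting for the 10. Their allelic expression was not measured here either. Of 65 listed, 64 are in the matrices and 28 reached 10 CPM in either depot. Of these, 1 was past 2-fold between depots, against 1.83% of all genes. It was Htr2a, a serotonin receptor gene, at 14.1 CPM in white and 6.01 CPM in brown (-1.23). The median was -0.01. Kcnq1ot1, the antisense non-coding RNA of the domain that holds Cdkn1c, was lower in brown at 188 and 123 CPM (-0.61, -0.66 to -0.57), and Ppp1r9a had -0.67. At the other end were Peg10 (0.40), Cd81 (0.36) and Pon2 (0.29).

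Between CAPs and FAPLs the count was 3 of 28 in white and 3 of 29 in brown, against 3.85% and 3.87% of all genes. In white these were Htr2a (1.18) and Zdbf2 (1.04), higher in wCAPs, and Dcn, the matrix proteoglycan decorin, lower at 470 and 961 CPM (-1.03, -1.08 to -0.99). Kcnq1ot1 had 0.78, and Pon3 and Ndn had -0.94 and -0.49. In brown these were Usp29 (1.89), Zim1 (1.44) and Peg10 (1.35), all higher in bCAPs. Usp29 and Zim1 belong to the domain of Peg3, which had 1.39, but rest on 16.2 and 15.1 CPM in bCAPs. Pon3 (-0.79), Dcn (-0.58) and Nnat (-0.30) were at the low end.

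Genes of the pathways the 10 act in were counted from lists. Of 12 IGF axis genes, 3 were past 2-fold between depots, against 1.83% of all genes. Igf1, the postnatal counterpart of Igf2, was lower in brown at 164 and 54.0 CPM (-1.60, -1.66 to -1.54), as was the binding protein gene Igfbp3 at 252 CPM in white (-1.32). Igfbp4 was higher in brown, at 152 and 317 CPM (1.06). The receptor Igf2r, which is itself imprinted (it is on both lists) and clears Igf2, had -0.01. The remaining ratios named by the rule were -0.71 for Igfbp6 and 0.03 for Igfbp5. Between CAPs and FAPLs, 5 of 13 were past 2-fold in white, 1 higher and 4 lower in wCAPs, and 3 of 13 in brown, 1 higher and 2 lower, against 3.85% and 3.87% of all genes. Igf1 was the higher one in both (1.35 and 1.48). The lower ones were binding protein genes: Igfbp2 (-3.10), Igfbp6 (-1.70), Igfbp4 (-1.50) and Igfbp5 (-1.40) in white, and Igfbp6 (-3.48) and Igfbp2 (-3.39) in brown.

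At 10 CPM or more were 6 Notch pathway genes, 6 adipogenic genes and 8 genes of CDK inhibitors and proliferation. None was past 2-fold between depots, against 1.83% of all genes. Notch3 (0.35), Sox9 (0.35) and Notch1 (0.22) were the highest of the first list and Notch2 (-0.25) the lowest, with Jag1 at 0.17 and Hes1 at 0.18. Fabp4 (0.92), Cebpa (0.49) and Pparg (0.13) were higher in brown, and Cebpb (-0.26), Lpl (-0.14) and Cebpd (-0.14) lower. In contrast to Cdkn1c, the other CDK inhibitor genes Cdkn2a (0.81), Cdkn2b (0.75) and Cdkn1a (0.74) were higher in brown, while Cdkn1b (-0.12) and the proliferation genes Top2a (-0.13) and Mki67 (-0.33) were lower.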

How the data were processed

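Single-cell 3′ RNA libraries of white and brown precursor cells, 1 per depot, were analysed as deposited. The authors ran Cell Ranger 7.0.1 on mm10 and deposited the raw UMI counts of each gene and cell without normalization. This version counts intronic reads by default, so exonic and intronic RNA are summed. Of 5261 white and 7009 brown captured cells, the limits given in the study (over 3900 and under 7700 genes, 6000 to 60000 UMIs, 1.7 to 5% mitochondrial) kept 4407 and 6137. Cluster and cell type names were taken from the study's source data, of which the first rows, 1999 precursor cells per depot, were used here. For an alternative they were carried to the other cells by vote of 15 nearest neighbours, which returned 86.8% and 81.5% of held-out labels.

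UMIs were summed per group and scaled to CPM, with exact Poisson intervals. Log2 ratios have exact conditional binomial intervals and shares exact Clopper-Pearson intervals, at 95%, and a count of 0 allows 3 counts. A gene was counted if past 2-fold, at 10 CPM or more in either group. Correlations used log-normalized counts (scale 10000). With 1 library per depot no test was run. Cycle phases came from the Seurat 5.3.0 gene lists in R 4.3.3, scored with scanpy 1.11.5. Calculations used scikit-learn 1.9.0, pandas 2.3.3, scipy 1.17.1 and numpy 2.4.6 in Python 3.11.15, and were tested on simulated data. Doublets were not called.

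All 10 genes are named. Of each other list, up to 3 genes with the highest and 3 with the lowest ratio between depots are named, for other imprinted genes also between CAPs and FAPLs, and for each member the 3 most similar genes, with further genes named after their values were seen. The genes and lists were chosen with earlier results of these data known. Alternatives were carried-over labels, thinned cells, G1 cells, mean per-cell CPM, members left out of the total, equal weight of clusters, all captured cells, a higher minimum level, rank correlation, centring on clusters, single sexes and removal of shared barcodes.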

Additional observations from a re-analysis of the deposited data

Results flagged for a closer look

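In the part of the study's labels used here, 8 cells of the brown library were named myoblasts. They enter none of the comparisons of precursor cells. Cdkn1c, H19 and Igf2 stood above the precursor level there by more than 2-fold beyond counting error. The share of all genes that did so was not computed, so nothing is read from their number. Cdkn1c stood at 2044 CPM (1868 to 2232) against 101.3 CPM in brown precursor cells, H19 at 1584 CPM (1429 to 1750) against 503 CPM, and Igf2 at 477 CPM (394 to 572) against 127 CPM. All 3 had a UMI in 8 of 8 cells. The myogenic markers Myog and Myod1 stood at 2595 and 613 CPM in these cells. Plagl1 at 53.5 CPM and Mest at 45.2 CPM were not above the precursor level. All 8 cells were in G1 phase, against 65.6% of brown precursor cells, and all were called female. The part of phase and sex in these levels was not tested. These are 8 cells of 1 library, and the intervals cover counting error only.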

How the results depend on the processing

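Of the counts recomputed under the alternatives, 90 stayed within 1.5 times the reported one and the 12 below did not. In the brown over white comparison 1 member stayed past 2-fold with clusters weighted equally (Igf2 at -0.98) and 1 with all captured cells (Cdkn1c at -0.96). Pairs with an r of at least 0.2 dropped from 27 to 16 in white and 13 in brown after thinning, and to 10 in brown when centred on clusters. Among the other imprinted genes, the count of 1 between depots was 2 after thinning, with the mean of per-cell CPM and in male cells, and 0 at 50 CPM or more. The count of 3 between white CAPs and FAPLs was 1 at 50 CPM or more, and that of 3 in brown was 5 with labels carried over and 0 at 50 CPM or more. Over the 5 comparisons recomputed (brown over white, CAPs over FAPLs in each depot, and wAPC 2 and bAPC 5 over the other cells), members' ratios changed sign for Dlk1 and Grb10 between bCAPs and bFAPLs and for no other. The pairs of clusters between depots were not recomputed. The causes of these shifts were not tested. No paired analysis was possible because each depot had 1 library. The sex split, the comparisons of wAPC 2 and bAPC 5 and the removal of shared barcodes were chosen after seeing the data. With 1 library per depot, differences between animals, cultures and library preparation are not covered by any interval, and the depth limits small clusters most, such as the 15 differentiating wFAPLs.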
